A study of Mus musculus with 15 samples.

Results

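The collagen genes were described across 4 groups of mouse tumors profiled by RNA sequencing. Members were all genes whose symbol is Col, a number, a and a number, and 43 of the 23329 genes counted met this rule. Col26a1, which the count tables list under its older symbol Emid2, is outside the rule. EμMyc mice carry c-Myc under the immunoglobulin heavy chain enhancer, which is active in B cells, and lymphomas were taken from cervical lymph nodes of 4 EμMyc mice with intact Casp2 and of 3 EμMyc/Casp2-/- mice, all on a C57BL/6 background. Th-MYCN mice carry MYCN under the tyrosine hydroxylase promoter, which is active in sympathetic neuroblasts, and neuroblastomas came from paraspinal thoracic tumors of 4 Th-MYCN mice with intact Casp2 and of 4 Th-MYCN/Casp2-/- mice, all on a mixed Sv129/C57BL6 background. Casp2 encodes caspase-2, and the Casp2-/- mice lack it in all tissues, in tumor stroma as in tumor cells. Onset was at 13 to 19 weeks in EμMyc mice and at 8 to 12 weeks in EμMyc/Casp2-/- mice. These ranges do not overlap, so in lymphomas an effect of age cannot be told apart from that of genotype. In the neuroblastomas the ranges were 10 to 21 weeks and 15 to 24 weeks, and the study picked neuroblastomas that had few or no visible blood vessels. Tissue of whole tumors was used, so fewer cells of a type and less RNA per cell cannot be told apart. Values for single tumors are always given in the order EuMyc614, EuMyc743b, EuMyc829 and EuMyc835, then EuMycC2ko215, EuMycC2ko239 and EuMycC2ko245, then MYCN175, MYCN235, MYCN332 and MYCN391, then MYCNC2ko118, MYCNC2ko144, MYCNC2ko176 and MYCNC2ko180.

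Collagens are extracellular matrix proteins in which 3 chains wind into a triple helix, and each gene encodes a chain. Fibrillar collagens such as types I, III and V form the cables of connective tissue, fibril-associated collagens (FACITs) coat those cables, type IV forms the network of basement membranes under endothelium and epithelium, and type VI forms beaded filaments around cells. In tumors the type I and III chains come mainly from fibroblasts, and type IV is made by vessels as well as by other cells.

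Libraries held 4940464 to 17638029 reads on genes, and 3 reads corresponded to 0.173 to 0.586 CPM (reads scaled to a common library size by TMM), a limit that covers counting error only. Within groups, every pair of tumors differed beyond counting error (lowest chi-square per degree of freedom was 16.2 over 21 pairs). Casp2 was at 167, 125, 203 and 139 CPM in EμMyc tumors and at 58.0, 51.9 and 76.1 CPM in EμMyc/Casp2-/- tumors, which do not overlap (log2 fold change -1.35). It was at 125, 93.3, 76.0 and 106 CPM in Th-MYCN tumors and at 80.2, 57.7, 39.6 and 54.5 CPM in Th-MYCN/Casp2-/- tumors, which overlap (log2 fold change -0.79), and a count per gene does not show which exons the reads cover. Summed B cell markers were at 1809 to 4447 CPM in lymphomas and 5.71 to 22.0 CPM in neuroblastomas, and summed sympathetic neuroblast markers at 2.68 to 23.6 and 3376 to 5864 CPM. Salivary gland markers stood apart in EuMyc743b, EuMyc829 and EuMyc835, with sums of 1457, 1058 and 3311 CPM against 26.2 CPM in EuMyc614 and 44.7 to 151 CPM in EμMyc/Casp2-/- tumors. Summed T cell markers separated the lymphoma groups, at 29.6 to 110 CPM in EμMyc tumors and at 1478, 214 and 152 CPM in EμMyc/Casp2-/- tumors (8 of 8 log2 fold changes above 0, 5 called by the LRT and 0 by QLF), and the epithelial keratins Krt8 and Krt18 stood apart in EuMycC2ko215, at 48.1 and 98.1 CPM. Skeletal muscle markers stood apart in MYCN175 and MYCNC2ko118, at 238 and 460 CPM against 10.0 to 47.8 CPM elsewhere. Values without the salivary gland tumors are given for Col5a3 and Col6a4, and values without the skeletal muscle tumors for Col1a1, Col13a1 and Col24a1. For other members, Col27a1 and most genes called between tumor types among them, no such value is given. Leaving out the salivary gland tumors leaves EuMyc614 as the sole EμMyc tumor.

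Collagen reads made up 0.0626 to 0.196% of all reads on genes. The summed level of the 43 genes was 833 to 1940 CPM in EμMyc, 635 to 1440 CPM in EμMyc/Casp2-/-, 841 to 1145 CPM in Th-MYCN and 631 to 1376 CPM in Th-MYCN/Casp2-/- tumors, so all 4 ranges overlap. A read was found for 24 collagen genes in every tumor, for 39 in every neuroblastoma, and 9 genes were over 10 CPM in every tumor while 14 were over 10 CPM in none. Testing was limited to genes that exceeded 1 CPM in 3 or more tumors, which kept 37 members. Of these, 26 passed in lymphomas and in neuroblastomas, 8 passed through neuroblastomas alone and 1, Col6a4, through lymphomas alone. The 6 members that were not tested were Col4a4, Col4a6, Col8a2, Col10a1, Col17a1 and Col22a1, and none of them passed 1.37 CPM in any tumor except Col22a1, at 5.67 CPM in EuMycC2ko215.

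Most collagen reads came from the chains of types I, III and IV. Col1a1, Col1a2, Col3a1, Col4a1 and Col4a2 held 43.8 to 82.2% of the collagen reads of a tumor. Col1a1 and Col1a2 encode the chains of type I collagen, the main protein of connective tissue. Col1a1 was at 397, 346, 108 and 98.5 CPM in EμMyc tumors, at 116, 225 and 98.3 CPM in EμMyc/Casp2-/- tumors, at 95.9, 65.9, 94.5 and 95.2 CPM in Th-MYCN tumors, and at 82.0, 38.2, 78.9 and 148 CPM in Th-MYCN/Casp2-/- tumors. Col1a2 was at 316, 279, 105 and 137 CPM, at 133, 201 and 89.8 CPM, at 126, 79.1, 134 and 122 CPM, and at 116, 65.7, 134 and 146 CPM in the same groups. EuMyc614 and EuMyc743b were the highest tumors for both chains, and the other EμMyc tumors lay within the range of the EμMyc/Casp2-/- tumors for Col1a2. Col3a1, the chain of type III collagen of soft connective tissue, was at 636, 427, 168 and 129 CPM, at 137, 329 and 124 CPM, at 216, 81.6, 143 and 181 CPM, and at 157, 58.0, 177 and 234 CPM. It was again highest in EuMyc614 and EuMyc743b, and lowest in MYCNC2ko144, as Col1a1 and Col1a2 were. Adipocyte markers were also highest among the EμMyc tumors in EuMyc614 and EuMyc743b, at 337 and 226 CPM against 50.6 and 48.5 CPM, whereas summed fibroblast markers were at 105 and 97.8 CPM against 67.4 and 76.0 CPM, and the part of either in the collagen levels was not tested.

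Type IV chains followed a different order. Col4a1 and Col4a2 encode the chains of the basement membrane network found in most tissues, and the pair is transcribed head to head on chromosome 8 (GRCm38, Col4a1 at chr8:11198423-11312826 on the minus strand and Col4a2 at chr8:11312805-11449287 on the plus strand). Their first exons share 22 bases, shown because reads in these bases cannot be given to either gene in a library that keeps no strand. The sequence is from the reference genome at chr8:11312805-11312826, written along the minus strand, and capitals mark GGGCGG, the GC box bound by Sp1 family factors, on its reverse strand.
Col4a1-Col4a2: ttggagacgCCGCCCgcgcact

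Col4a1 was at 107, 302, 114 and 96.1 CPM in EμMyc tumors, at 88.7, 174 and 83.4 CPM in EμMyc/Casp2-/- tumors, at 158, 137, 162 and 131 CPM in Th-MYCN tumors, and at 131, 69.1, 146 and 189.6 CPM in Th-MYCN/Casp2-/- tumors. Col4a2 was at 64.5, 196, 75.0 and 68.7 CPM, at 88.7, 123 and 51.7 CPM, at 101, 82.1, 102 and 88.9 CPM, and at 83.4, 45.0, 86.3 and 111 CPM. EuMyc743b was the highest tumor for both, the Th-MYCN tumors lay close together, and all 4 groups overlapped. Per kilobase of exon, Col4a1 over Col4a2 was 0.887 to 1.51 in the 15 tumors, Col1a1 over Col1a2 was 1.10 to 2.38, and Col6a1 over Col6a2, chains of type VI collagen, was 1.81 to 3.47. Single chains spanned a wider range over the same tumors: the highest CPM was 10.4 times the lowest for Col1a1, 11.0 times for Col3a1 and 4.37 times for Col4a1.

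**Figure D1:**
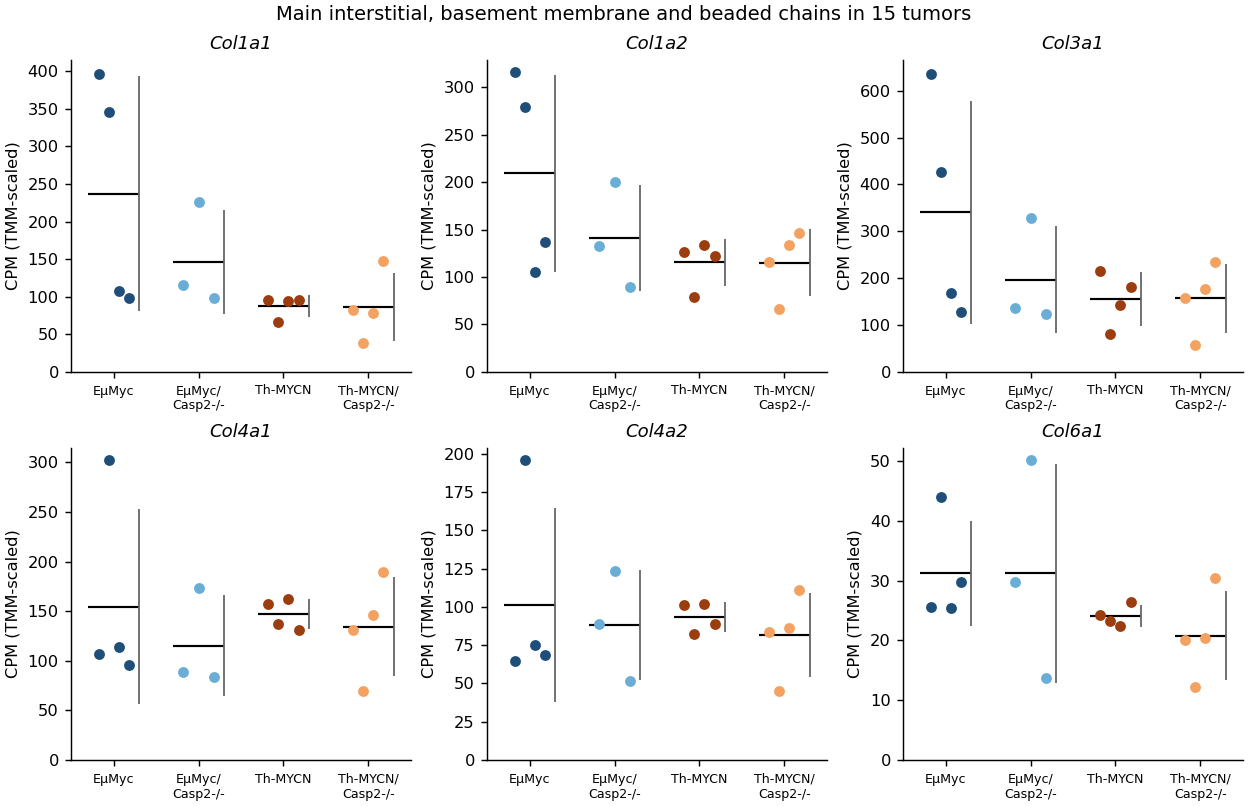
CPM scaled by TMM (y axis, linear, starting at 0) of 6 main chains in the 15 tumors, grouped by genotype; points are tumors, horizontal lines are group means and vertical lines are 1 SD. Col1a1 and Col3a1 are highest in EuMyc614 (397 and 636 CPM), Col4a1 and Col4a2 in EuMyc743b (302 and 196 CPM), and both Casp2-/- groups overlap their controls in each panel.

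On a scale of CPM per kilobase, which allows genes to be compared, Col1a1 (36.1 ± 23.8, SD, n = 4) and Col3a1 (34.7 ± 24.2) led the order in EμMyc tumors, followed by Col4a1 (20.7 ± 13.2). In EμMyc/Casp2-/- tumors the same genes led, with Col1a1 at 22.3 ± 10.5 (SD, n = 3), Col3a1 at 20.0 ± 11.7 and Col4a1 at 15.4 ± 6.78. In Th-MYCN tumors Col4a1 led with 19.7 ± 2.06 (SD, n = 4), ahead of Col3a1 with 15.8 ± 5.86, Col4a2 with 14.1 ± 1.46 and Col1a1 with 13.4 ± 2.23. In Th-MYCN/Casp2-/- tumors Col4a1 was at 18.0 ± 6.68 (SD, n = 4), Col3a1 at 16.0 ± 7.48 and Col1a1 at 13.2 ± 6.91. Neighbors in each of these orders differed by less than the SD of at least 1 of them. By class, fibrillar chains summed to 986 ± 453 CPM in EμMyc and 690 ± 252 CPM in EμMyc/Casp2-/- tumors, against 503 ± 98.8 CPM and 511 ± 171 CPM in Th-MYCN tumors with and without Casp2. FACITs had the opposite order, with 38.2 ± 15.6, 37.1 ± 18.7, 86.0 ± 18.6 and 115 ± 17.7 CPM, and every neuroblastoma (71.6 to 141 CPM) was above every lymphoma (15.4 to 51.9 CPM).

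The type VI chains Col6a1, Col6a2 and Col6a3 and the multiplexins had reads in all tumors. Col6a1 was at 25.6, 44.1, 25.4 and 29.8 CPM in EμMyc, at 29.7, 50.2 and 13.7 CPM in EμMyc/Casp2-/-, at 24.3, 23.2, 22.3 and 26.5 CPM in Th-MYCN and at 20.0, 12.3, 20.3 and 30.5 CPM in Th-MYCN/Casp2-/- tumors. Col6a2 was at 20.2, 30.3, 13.9 and 18.2 CPM, at 17.2, 34.8 and 9.89 CPM, at 19.2, 15.9, 16.7 and 22.8 CPM, and at 15.6, 9.57, 20.1 and 32.0 CPM. Col6a3 was at 21.0, 43.7, 17.7 and 25.7 CPM, at 29.3, 40.2 and 7.98 CPM, at 19.7, 54.3, 10.5 and 23.0 CPM, and at 16.9, 5.98, 13.3 and 24.7 CPM. Groups overlapped for all 3 chains, and EuMycC2ko239 was the highest tumor for Col6a1 and Col6a2 while MYCN235 was the highest for Col6a3. Col15a1 and Col18a1 encode multiplexins of basement membrane zones, and the end fragment of the Col18a1 protein is endostatin, an inhibitor of vessel growth. Col15a1 was at 18.8, 42.3, 14.3 and 17.4 CPM, at 25.4, 27.8 and 12.3 CPM, at 34.1, 21.9, 48.8 and 26.6 CPM, and at 27.7, 17.7, 47.4 and 48.6 CPM. Col18a1 was at 13.4, 25.8, 11.9 and 8.39 CPM, at 21.3, 15.0 and 9.89 CPM, at 28.4, 25.4, 51.1 and 20.1 CPM, and at 29.2, 21.2, 28.6 and 47.0 CPM. Most lymphomas were below the neuroblastomas for Col18a1, but EuMyc743b and EuMycC2ko215 lay within the neuroblastoma range, and all groups overlapped for Col15a1.

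The first comparison of genotypes was of Th-MYCN/Casp2-/- with Th-MYCN neuroblastomas. The likelihood ratio test of edgeR (LRT) called a gene where its Benjamini-Hochberg false discovery rate (FDR) was below 0.05 and its log2 fold change exceeded 1 in size, and the FDR of its stricter quasi-likelihood test (QLF) is given beside it. Of the 37 collagen genes tested, 0 were called by the LRT, 0 by QLF and 0 by DESeq2, against 0.813%, 0.0336% and 0.786% of all 14880 genes. A fit to the neuroblastoma groups alone called 4 by the LRT, Col9a2 as higher and Col13a1, Col24a1 and Col6a6 as lower. The share of all genes called in that fit is not given, so this count is a description. At an unadjusted p under 0.05 there were 7 members (18.9%), against 7.78% of all genes. The median log2 fold change of the members was 0.01, and that of all genes -0.00. The main stromal chains lay near 0, with Col1a1 at -0.02 (SE 0.46, LRT FDR 1), Col3a1 at 0.01 (SE 0.51, LRT FDR 1) and Col4a1 at -0.13 (SE 0.38, LRT FDR 1). The summed level of endothelial markers did not overlap: it ranged from 73.9 to 113 CPM with Casp2 and from 37.1 to 58.7 CPM without it, 8 of 8 log2 fold changes were below 0, and Pecam1 and Kdr were called by the LRT but not by QLF. Pericyte and smooth muscle markers summed to 64.5 to 123 CPM with Casp2 and 27.2 to 64.3 CPM without it, with Rgs5 and Acta2 called by the LRT but not by QLF. Col4a1 and Col4a2, which those cells make, overlapped between the same groups.

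Groups did not overlap for 6 of the 37 members (16.2%), against 6.62% of all genes tested. In the fit to all tumors none of the 6 was called, and in the fit to the neuroblastomas alone the 3 lower ones were. Col13a1 encodes a transmembrane collagen of cell adhesion sites. It was at 0.550, 2.83, 1.79 and 2.04 CPM in Th-MYCN and at 0.432, 0.386, 0.0964 and 0.244 CPM in Th-MYCN/Casp2-/- tumors (log2 fold change -2.56, SE 0.74, LRT FDR 0.0537, QLF FDR 0.363). Col24a1, a fibrillar chain of developing bone and cornea, was at 2.99, 6.75, 10.3 and 9.26 CPM and at 2.74, 2.70, 0.964 and 1.38 CPM (-1.90, SE 0.56, LRT FDR 0.0808, QLF FDR 0.450). All tumors without Casp2 were below all controls for both genes, by a narrow gap at MYCN175. Without MYCN175, which holds skeletal muscle transcripts, both genes were called by the LRT (FDR 0.00716 for Col13a1 and 0.0100 for Col24a1), and likewise with MYCN175 and MYCNC2ko118 both left out (FDR 0.0239 and 0.0247). The third member with lower values was Col6a6, at 0.654 to 1.39 CPM and 0 to 0.325 CPM. Among the genes with higher values, Col4a3, a type IV chain of the kidney and other specialised basement membranes, was at 2.57, 0.654, 1.90 and 0.618 CPM in Th-MYCN and at 4.11, 11.1, 3.37 and 2.84 CPM in Th-MYCN/Casp2-/- tumors (1.89, SE 0.65, LRT FDR 0.202, QLF FDR 0.473). The FACIT gene Col20a1 and the von Willebrand domain collagen gene Col28a1, which Schwann cells express, had log2 fold changes of 0.80 (LRT FDR 0.801) and 1.12 (LRT FDR 0.823). Schwann cell markers summed to 92.3 to 193 CPM in the controls and to 150 to 234 CPM without Casp2, and their part in Col28a1 was not tested. Col9a2 had a larger change than either (2.27, SE 0.78, LRT FDR 0.223), at 1.04, 2.11, 3.29 and 2.47 CPM against 16.5, 18.0, 2.41 and 6.17 CPM, and its groups overlapped through MYCNC2ko176.

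**Figure D2:**
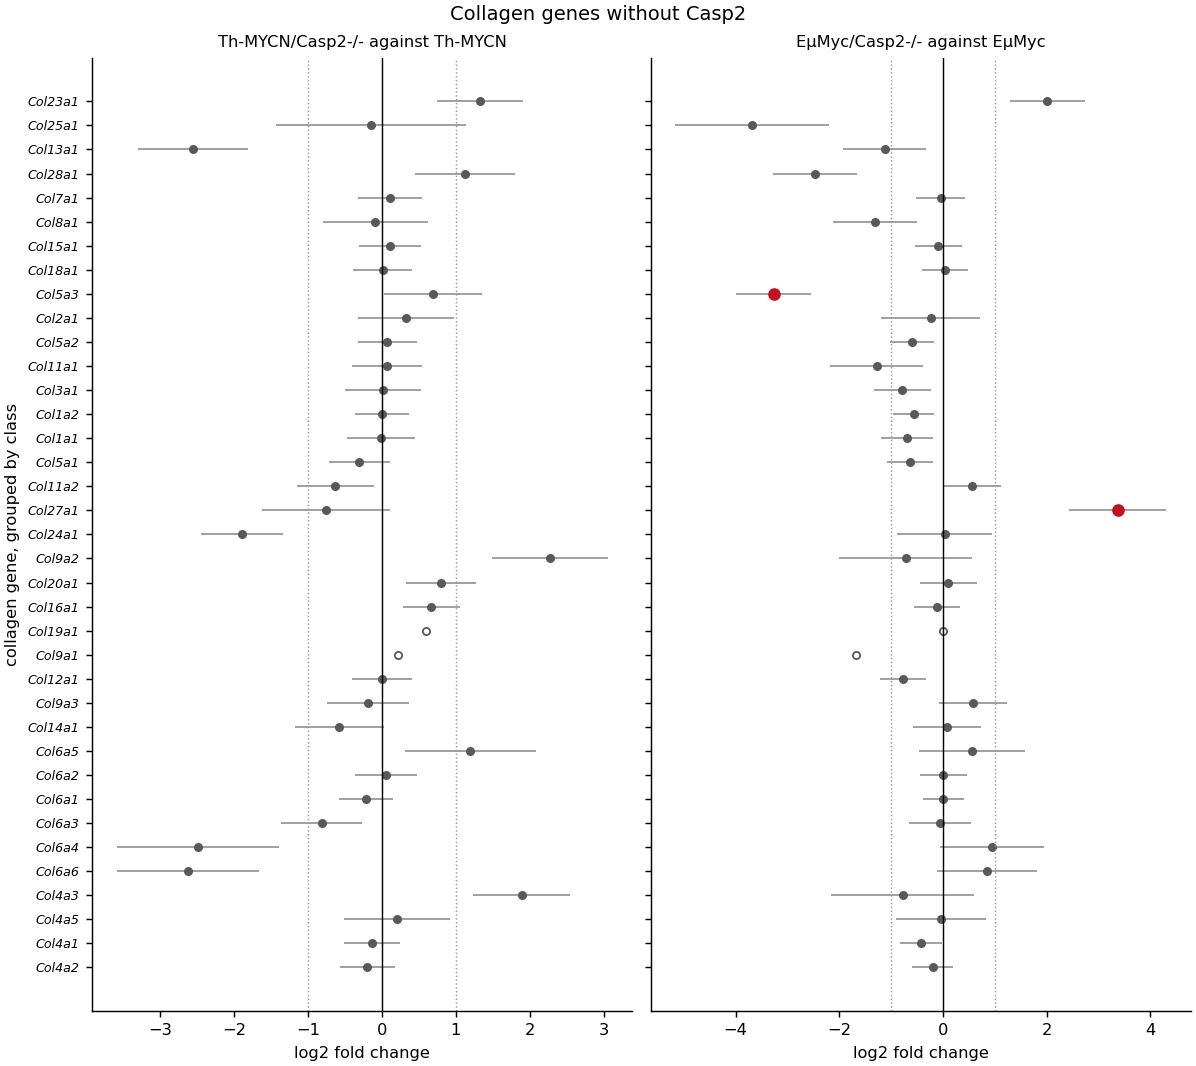
Log2 fold changes (x axis; the panels have different scales) of the 37 tested collagen genes in tumors without Casp2 against their controls, neuroblastomas on the left and lymphomas on the right, ordered by class. Points are estimates of the fit, bars are 1 SE, open circles have no SE, dotted lines mark a log2 fold change of 1 in size, and red marks the members called: none in neuroblastomas and Col5a3 (-3.26) and Col27a1 (3.37) in lymphomas.

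In the lymphomas 2 of 37 collagen genes were called (5.41%), Col27a1 as higher and Col5a3 as lower in EμMyc/Casp2-/- than in EμMyc tumors, against 1.44% of all genes (1.14% higher and 0.302% lower). QLF called 0 of the members and 0.141% of all genes, DESeq2 called Col5a3 and 1.51% of all genes, and 5 members (13.5%) had an unadjusted p under 0.05, against 9.89% of all genes. In a fit to the lymphoma groups alone 0 members were called (LRT FDR 0.277 for Col27a1 and 0.167 for Col5a3). The median log2 fold change of the members was -0.11 and that of all genes -0.03. T cell markers, given above, did not overlap between the same groups, and their part in the collagen values was not tested. Col5a3 encodes a fibrillar chain of type V collagen, a minor partner that is built into larger fibrils. It was at 17.5, 12.4, 62.3 and 288 CPM in EμMyc tumors, at 7.62, 10.6 and 11.4 CPM in EμMyc/Casp2-/- tumors, at 27.1, 28.0, 46.0 and 24.8 CPM in Th-MYCN tumors, and at 47.5, 38.0, 61.1 and 56.6 CPM in Th-MYCN/Casp2-/- tumors. All lymphomas without Casp2 were below all EμMyc tumors, by a narrow gap below EuMyc743b, and EuMyc835 stood far above the rest (log2 fold change -3.26, SE 0.72, LRT FDR 0.00973, QLF FDR 0.179, DESeq2 FDR 0.00135). Groups did not overlap for 3 members in this comparison, Col5a3, Col23a1 and Col28a1 (8.11%), against 3.7% of all genes. Without EuMyc835 the log2 fold change of Col5a3 was -1.63 (LRT FDR 0.0608), without EuMycC2ko215 it was -3.09 (LRT FDR 0.179), and with EuMyc614 as the sole EμMyc tumor, so without the 3 tumors that hold salivary gland transcripts, it was -0.83 (LRT FDR 0.555). EuMyc835 had the highest sum of salivary gland markers (3311 CPM), but EuMyc743b, with 1457 CPM, had the lowest Col5a3 level of the EμMyc tumors (12.4 CPM). The part of salivary gland tissue in Col5a3 was not tested.

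Col5a3 lies on mouse chromosome 9 (GRCm38, chr9:20770050-20815067, minus strand). Its promoter is shown because it is the collagen gene with the lowest FDR in a comparison of genotypes: the 250 bases before the RefSeq start, at chr9:20815068-20815317 of GRCm38.p6, written along the minus strand and without an annotated exon. Capitals mark CCAAT, the CCAAT box, and GGGCGG, the GC box, on either strand (CCGCCC is its reverse).
Col5a3: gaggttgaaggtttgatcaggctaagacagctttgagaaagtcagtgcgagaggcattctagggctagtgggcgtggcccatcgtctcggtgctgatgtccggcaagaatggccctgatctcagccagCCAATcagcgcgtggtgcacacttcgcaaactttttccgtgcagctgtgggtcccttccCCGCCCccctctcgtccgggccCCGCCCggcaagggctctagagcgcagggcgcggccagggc

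The window holds 1 CCAAT box and 2 GC boxes. It holds neither TATAAA, the TATA box, nor CACGTG, the E-box to which Myc and MYCN bind with Max. Of 38 windows of this length before the starts of 35 collagen genes, 0 held CACGTG, against 6.02% of 32851 windows before all RefSeq starts. CCAAT was found in 13 (34.2% against 33.9%), TATAAA in 5 (13.2% against 12.4%) and GGGCGG in 22 (57.9% against 32.7%). A match describes letters in these windows and no binding.

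Col27a1 encodes a fibrillar chain of cartilage that the adult body makes at low levels (GRCm38, chr4:63214004-63334991, plus strand). It was at 30.4, 6.42, 2.36 and 2.87 CPM in EμMyc tumors, at 249.8, 73.9 and 3.13 CPM in EμMyc/Casp2-/- tumors, at 3.66, 11.6, 16.2 and 7.47 CPM in Th-MYCN tumors, and at 7.06, 4.43, 5.21 and 6.34 CPM in Th-MYCN/Casp2-/- tumors. EuMycC2ko215 and EuMycC2ko239 were above all other tumors, while EuMycC2ko245 was between EuMyc835 and EuMyc743b, so the groups overlapped (log2 fold change 3.37, SE 0.93, LRT FDR 0.0410, QLF FDR 0.280, DESeq2 FDR 0.0667). The call was lost without EuMycC2ko215 (1.86, LRT FDR 0.926), the tumor with the highest T cell and keratin transcripts and the sole female lymphoma, and also with sex as a term in the model (2.85, LRT FDR 0.284) or without EuMyc743b, EuMyc829 or EuMyc835 (LRT FDR 0.116 to 0.141). Lymph node stroma markers summed to 103 and 113 CPM in EuMycC2ko215 and EuMycC2ko239, to 23.5 CPM in EuMycC2ko245 and to 16.3 to 44.9 CPM in EμMyc tumors. EuMyc614, with the highest Col27a1 level of the EμMyc tumors, had a sum of 17.1 CPM. Among neuroblastomas MYCN332 had a sum of 107 CPM with Col27a1 at 16.2 CPM. Of this list, 5 of 5 tested genes had log2 fold changes above 0 in the lymphoma comparison, Cr2 was called by the LRT and none by QLF. The study lists Cr2 among upregulated genes of a Bcor expression signature of EμMyc mice. Which cells hold Cr2 transcripts, stroma or lymphoma cells, was not measured. Ccl21a was at 0 in all tumors, and the part of lymph node stroma in Col27a1 was not tested. Cartilage and bone markers, a list of 9 genes, summed to 0.406 to 4.46 CPM in all 15 tumors, with Ibsp at 0 in each and Acan at 0 in 13. Their part in Col27a1 was not tested either. Col22a1, a FACIT gene that was not tested, had its highest values in EuMycC2ko215 and EuMycC2ko239 as well (5.67 and 1.34 CPM, against at most 0.868 CPM elsewhere).

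**Figure D3:**
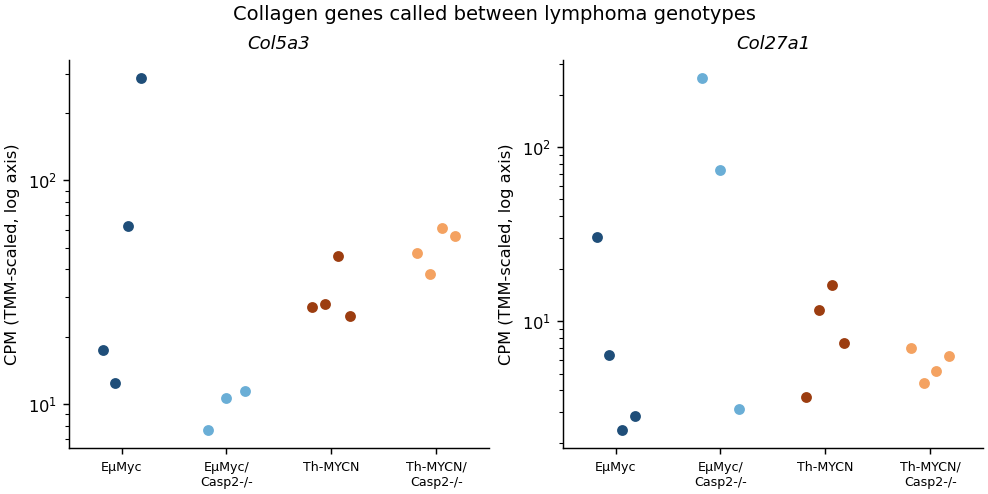
CPM scaled by TMM (log axis) of Col5a3 and Col27a1 in the 15 tumors; points are single tumors. Col5a3 is at 7.62 to 11.4 CPM in EμMyc/Casp2-/- tumors, below the 12.4 to 288 CPM of EμMyc tumors, and Col27a1 is at 73.9 and 249.8 CPM in EuMycC2ko239 and EuMycC2ko215 but at 3.13 CPM in EuMycC2ko245.

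Other members of the lymphoma comparison did not pass the test. The main stromal chains had log2 fold changes of -0.69 for Col1a1 (SE 0.50, LRT FDR 0.743), -0.57 for Col1a2 (SE 0.39, LRT FDR 0.730), -0.79 for Col3a1 (SE 0.55, LRT FDR 0.737) and -0.42 for Col4a1 (SE 0.41, LRT FDR 0.836). Of the 6 type VI chains, 5 had values above 0, with a median of 0.28: Col6a1 and Col6a2 were at 0.00, Col6a3 at -0.07, Col6a5 at 0.55, Col6a6 at 0.85 and Col6a4 at 0.94, each with an LRT FDR of at least 0.841. Col28a1 was at 1.40, 11.7, 1.65 and 1.70 CPM in EμMyc and at 0, 1.34 and 0.707 CPM in EμMyc/Casp2-/- tumors (-2.47, SE 0.81, LRT FDR 0.118, QLF FDR 0.392), and without EuMyc743b its log2 fold change was -1.03. Col23a1, a transmembrane collagen gene, was at 0.700, 0.428, 0.158 and 0.212 CPM and at 1.37, 1.34 and 1.92 CPM (2.01, SE 0.72, LRT FDR 0.136). In reads, Col28a1 had 16, 137, 21 and 16 in EμMyc tumors and 0, 16 and 7 in EμMyc/Casp2-/- tumors. Col23a1 had 8, 5, 2 and 2 reads and 7, 16 and 19 reads, so its EμMyc values were near the level of a few reads. Col25a1, a transmembrane collagen of neurons, had a log2 fold change of -3.68 (SE 1.49, LRT FDR 0.369) that rested on EuMyc829, at 14.0 CPM against 0 to 2.02 CPM in the other lymphomas, and was -1.38 without it. Without EuMycC2ko245, which leaves EμMyc/Casp2-/- tumors with no read of Col25a1, the fitted value was -8.71 and the gene was called (LRT FDR 0.0338).

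The comparisons of genotypes in both tumor types share no tumor. Log2 fold changes were above 0 in both for 5 members, below 0 in both for 10 and of opposite sign for 21 of 37 (Col19a1, with no read in lymphomas, counts in none), and they were under 1 in size in both for 22. The interaction of genotype and tumor type, which tests whether the change without Casp2 differs between lymphomas and neuroblastomas, called 1 member (2.7%), Col5a3, by the LRT and 0 by QLF, against 0.914% and 0.0538% of all genes. Its log2 fold change was -3.26 in lymphomas and 0.69 in neuroblastomas (SE 0.66, LRT FDR 0.999), a difference of -3.95 (SE 0.98, LRT FDR 0.0274, QLF FDR 0.318, DESeq2 FDR 0.0127). Leaving out 1 tumor at a time gave -4.33 to -2.32 with an LRT FDR of 0.000814 to 0.144, the size was least without EuMyc835, and the call was lost in 8 of 15 such fits. Without the tumors high in salivary gland transcripts the difference was -1.53 (LRT FDR 0.120). Col28a1 had opposite signs too (-2.47 and 1.12, difference -3.60, LRT FDR 0.0747), as did Col27a1 (3.37 and -0.76, difference 4.13, LRT FDR 0.102), but the difference did not pass the test for either.

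Comparisons of tumor types gave far larger differences. Lymphomas and neuroblastomas also differed in strain background and body site, and effects of these cannot be told apart from that of tumor type. Between EμMyc and Th-MYCN tumors 17 members were called (45.9%), 5 higher and 12 lower in lymphomas, against 47.5% of all genes. In the comparison without Casp2, of EμMyc/Casp2-/- with Th-MYCN/Casp2-/- tumors, 21 were called (56.8%), 4 higher and 17 lower, against 48% of all genes. Over all genes, 28.5% and 27.6% were called as lower in lymphomas, against 32.4% and 45.9% of the members, and 18.9% and 20.5% as higher, against 13.5% and 10.8%. The share of lower members in the first comparison is near its background. QLF called 2 higher and 12 lower members in the first comparison, where it called 46.1% of all genes (18.3% higher and 27.8% lower), and 3 and 16 in the second, where it called 46.4% (19.7% and 26.6%). Median log2 fold changes of the members were -0.51 and -0.76, against -0.04 and -0.05 over all genes. All these figures cover genes that passed the filter, and 8 of the 37 passed through neuroblastomas alone. Groups did not overlap for 13 members (35.1%) in the first comparison, against 59.4% of all genes, and for 16 (43.2%) in the second, against 54.8%. All 12 genes called as lower in the first comparison were called as lower in the second, where they made up 70.6% of the lower calls, and these comparisons share no tumor. Among them Col2a1, Col4a3, Col9a1, Col9a2, Col11a1, Col19a1 and Col24a1 passed the filter through neuroblastomas alone. The overlap of calls over all genes was not computed, so this overlap is a description. The 2 members called as higher in both were Col11a2 and Col6a4.

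The 12 shared genes with lower levels in lymphomas were the type IX chains Col9a1, Col9a2 and Col9a3, the other FACIT genes Col16a1, Col19a1 and Col20a1, the fibrillar chains Col2a1, Col11a1 and Col24a1, and Col4a3, Col8a1 and Col18a1. Of the 8 FACIT genes tested, 6 were lower in EμMyc than in Th-MYCN tumors and 7 in EμMyc/Casp2-/- than in Th-MYCN/Casp2-/- tumors, and Col14a1 was called in neither. Col9a1, Col9a2 and Col19a1 passed the filter on low values through neuroblastomas alone, as did Col11a1, Col24a1, Col2a1 and Col4a3. The filter thus favored lower values in lymphomas for these genes, and the counts are a description. Col25a1 passed in the same way and was not called between EμMyc and Th-MYCN tumors. Col11a1, a fibrillar chain that sets the width of cartilage fibrils, was at 0.525, 0.428, 0.630 and 0.212 CPM in EμMyc tumors, at 0.195, 0.334 and 0 CPM in EμMyc/Casp2-/- tumors, at 26.0, 16.2, 8.95 and 19.9 CPM in Th-MYCN tumors, and at 14.5, 34.5, 14.8 and 10.6 CPM in Th-MYCN/Casp2-/- tumors. Every neuroblastoma was above every lymphoma, with log2 fold changes of -5.25 (SE 0.57, LRT FDR 6.21e-17, QLF FDR 2.22e-06) and -6.60 (SE 0.84, LRT FDR 5.93e-16, QLF FDR 3.49e-06). Col9a1 was at 0.0875 CPM in EuMyc614 and at 0 in the other 6 lymphomas, while it was at 2.32, 3.92, 4.96 and 2.22 CPM in Th-MYCN and at 2.16, 7.77, 1.64 and 3.98 CPM in Th-MYCN/Casp2-/- tumors. Scaled by depth, that is 152-fold more in Th-MYCN than in EμMyc tumors from 214 reads against 1 (95% counting interval 27.0 to 6034). Without Casp2 it is at least 37.5-fold more, from 217 reads against 0, taking 3 reads over the group for 0. Col19a1 was at 0 in all 7 lymphomas and at 1.10, 0.436, 1.04 and 0.185 CPM in Th-MYCN and 0.576, 1.22, 0.771 and 1.62 CPM in Th-MYCN/Casp2-/- tumors, at least 10.7-fold and at least 9.50-fold more by the same floor. Col9a1 and Col19a1 lie tail to tail on chromosome 1, 9205 bases apart (GRCm38, chr1:24177610-24252684 and chr1:24261890-24587472). Col16a1 was at 3.43 to 10.4 CPM in lymphomas and 18.8 to 56.7 CPM in neuroblastomas (log2 fold changes -2.20 and -2.98), and Col8a1, a short chain of vessel walls and Descemet membrane, at 0.202 to 10.9 and 13.1 to 28.2 CPM (-2.35 and -3.57). The highest lymphoma value of Col8a1 was in EuMyc614, the EμMyc tumor with low salivary gland markers.

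The cartilage and bone marker list summed to 0.406 to 4.46 CPM in all tumors, with Ibsp at 0. Only 2 of its 9 genes passed the filter, and its part in the type IX and XI chains was not tested. Schwann cell markers were at 19.1 to 52.1 CPM in lymphomas and 92.3 to 234 CPM in neuroblastomas, and summed fibroblast markers were at 65.6 to 125 CPM and 132 to 317 CPM. Single fibroblast markers went both ways: 5 of 7 tested were above 0 in EμMyc against Th-MYCN tumors (median 0.51, lowest -6.04). Without Casp2 4 of 7 were above 0 (median 0.19, lowest -5.22). The part of Schwann cells and fibroblasts in the genes lower in lymphomas was not tested. Col18a1 passed in both comparisons by a small margin (-1.07, LRT FDR 0.0154, and -1.04, LRT FDR 0.0356), and lost the call in 4 of 8 and 3 of 7 fits that leave out 1 tumor. Read counts of Col9a3 include a stretch of 234 exon bases shared with Tcfl5 on the other strand, which these libraries cannot tell apart.

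Type XI collagen was split between the tumor types. Col11a2, the partner chain of Col11a1, was at 31.1, 17.5, 36.6 and 35.8 CPM in EμMyc tumors, at 65.6, 11.3 and 57.3 CPM in EμMyc/Casp2-/- tumors, at 2.87, 8.64, 4.10 and 5.25 CPM in Th-MYCN tumors, and at 2.30, 5.85, 1.93 and 3.25 CPM in Th-MYCN/Casp2-/- tumors. Every lymphoma was above every neuroblastoma, opposite to Col11a1, with log2 fold changes of 2.53 (SE 0.51, LRT FDR 7.81e-06, QLF FDR 0.000630) and 3.73 (SE 0.56, LRT FDR 1.05e-09, QLF FDR 4.87e-05). Both promoters are shown so that the pair can be compared: 250 bases before the RefSeq starts on the plus strand of GRCm38.p6, Col11a1 at chr3:114030290-114030539 and Col11a2 at chr17:34038888-34039137, neither with an annotated exon. Capitals mark the CCAAT box, the TATA box and the GC box of the preceding promoter on either strand (ATTGG is the reverse of the first and CCGCCC of the last).
Col11a1: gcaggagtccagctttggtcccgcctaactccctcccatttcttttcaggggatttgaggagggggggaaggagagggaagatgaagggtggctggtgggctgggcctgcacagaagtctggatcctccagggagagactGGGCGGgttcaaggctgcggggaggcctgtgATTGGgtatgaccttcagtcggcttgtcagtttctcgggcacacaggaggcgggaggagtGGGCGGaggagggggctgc
Col11a2: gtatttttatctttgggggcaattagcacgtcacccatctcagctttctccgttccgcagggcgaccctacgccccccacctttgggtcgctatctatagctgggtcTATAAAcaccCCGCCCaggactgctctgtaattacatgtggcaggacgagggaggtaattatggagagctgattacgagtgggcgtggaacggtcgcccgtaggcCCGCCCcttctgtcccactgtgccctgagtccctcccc

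The Col11a1 window holds 1 CCAAT box and 2 GC boxes, and the Col11a2 window holds 1 TATA box and 2 GC boxes. The RefSeq start of Col11a2 used here lies before the GENCODE gene start (GRCm38, chr17:34039437), and which start these tumors use was not measured.

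**Figure D4:**
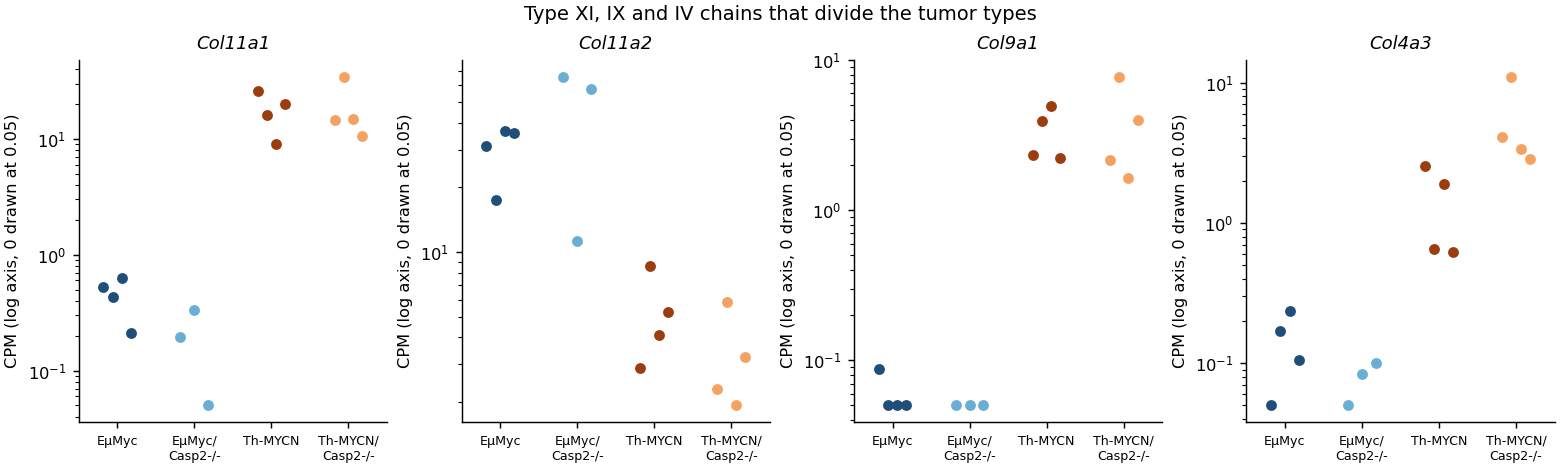
CPM scaled by TMM (log axes with different ranges, 0 drawn at 0.05) of Col11a1, Col11a2, Col9a1 and Col4a3 in the 15 tumors; points are single tumors. Col11a1 is at 0 to 0.630 CPM in lymphomas and 8.95 to 34.5 CPM in neuroblastomas, Col11a2 at 11.3 to 65.6 and 1.93 to 8.64 CPM, and Col9a1 and Col4a3 are at or near 0 in lymphomas.

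Col4a3 was at 0 to 0.236 CPM in lymphomas and 0.618 to 11.1 CPM in neuroblastomas, with log2 fold changes of -3.36 (SE 0.88, LRT FDR 0.000114, QLF FDR 0.00181) and -6.03 (SE 1.25, LRT FDR 5.51e-08, QLF FDR 0.000128). Col4a3 passed the filter through neuroblastomas alone, which favored this direction, so these values are a description. In Th-MYCN/Casp2-/- against EμMyc/Casp2-/- tumors it had 299 reads against 2, or 77.4-fold (95% counting interval 21.3 to 642). Its neighbor Col4a4 starts 71 bases away on the other strand, and its chain joins that of Col4a3 in the same network. Col4a4 did not follow it, with 0 to 1.37 CPM in lymphomas and 0 to 0.936 CPM in neuroblastomas, and it was not tested. The bases between both starts (chr1:82586850-82586920 of GRCm38.p6, written along the minus strand) are shown because both genes start at their edges. They hold none of the 4 motifs.
Col4a4-Col4a3: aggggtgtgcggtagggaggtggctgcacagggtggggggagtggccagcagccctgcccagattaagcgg

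Higher levels in lymphomas were found for few members. Col1a1 was called as higher in EμMyc than in Th-MYCN tumors (1.43, SE 0.46, LRT FDR 0.00464, QLF FDR 0.0152) and not called without Casp2 (0.76, SE 0.50, LRT FDR 0.178). Its EμMyc and Th-MYCN groups did not overlap, by a narrow gap between EuMyc835 (98.5 CPM) and MYCN175 (95.9 CPM). Col3a1 was called in the same comparison (1.13, SE 0.51, LRT FDR 0.0456, QLF FDR 0.0705) but lost the call by QLF, by DESeq2 (FDR 0.0510) and in 5 of the 8 fits that leave out 1 tumor. Col6a4 was at 0, 4.02, 3.15 and 8.18 CPM in EμMyc, at 10.4, 6.84 and 4.95 CPM in EμMyc/Casp2-/-, at 0.244, 1.23, 0.231 and 1.36 CPM in Th-MYCN and at 0.072, 0.257, 0 and 0.163 CPM in Th-MYCN/Casp2-/- tumors. It encodes a type VI chain and was called in both comparisons (2.31, LRT FDR 0.0316, with a QLF FDR just above the threshold, and 5.74, LRT FDR 5.89e-06, QLF FDR 0.000838), although EuMyc614 was at 0. Col6a4 passed the filter on low values through lymphomas alone, which favored this direction, so these values are a description. The first call was lost in 4 of the 8 fits that leave out 1 tumor (1.64 to 2.77, LRT FDR 0.000220 to 0.145, highest without EuMyc835). With EuMyc614 as the sole EμMyc tumor its log2 fold change was -6.29. Col5a3 changed direction between the comparisons of tumor types: it was higher in EμMyc than in Th-MYCN tumors (1.59, SE 0.66, LRT FDR 0.0322, QLF FDR 0.0589) and lower in EμMyc/Casp2-/- than in Th-MYCN/Casp2-/- tumors (-2.36, SE 0.72, LRT FDR 0.00535, QLF FDR 0.0211). The first of these was -0.03 without EuMyc835 and -0.75 without the 3 tumors high in salivary gland transcripts. Col27a1 and Col6a6 were called as higher in lymphomas in the absence of Casp2 alone (4.24, LRT FDR 8.07e-05, and 2.38, LRT FDR 0.0300), and the test of that difference, the interaction, did not pass for either (LRT FDR 0.102 and 0.264).

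**Figure D5:**
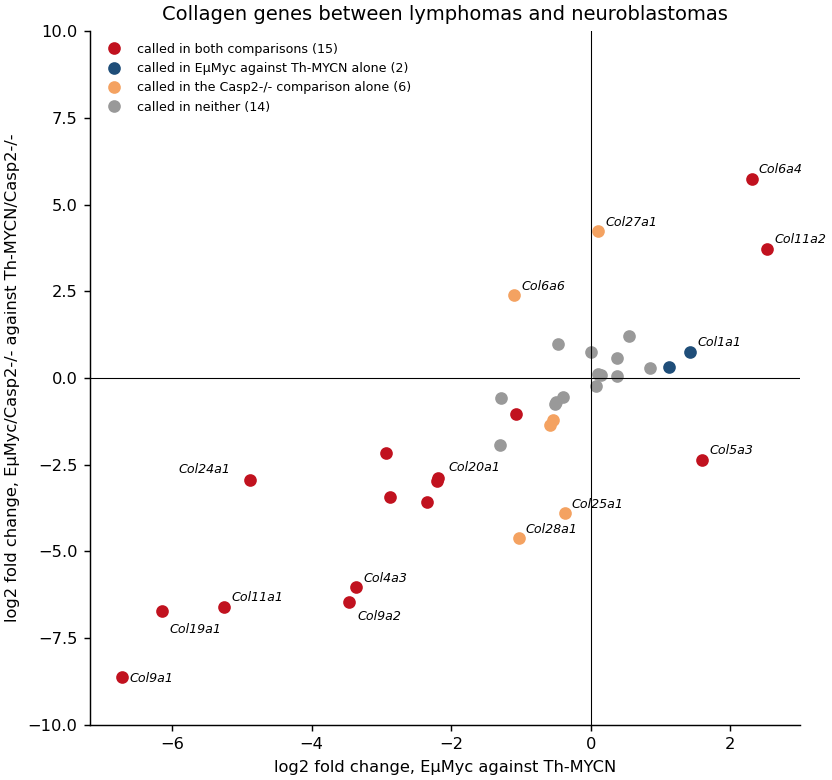
Log2 fold changes of the 37 tested collagen genes, EμMyc against Th-MYCN (x axis) and EμMyc/Casp2-/- against Th-MYCN/Casp2-/- (y axis); each point is a gene, colored by the comparisons that called it. Of 15 genes called in both, 12 lie in the lower left, Col11a2 and Col6a4 in the upper right, and Col5a3 (1.59 and -2.36) in the lower right; fitted values of Col9a1 and Col19a1, at or near 0 reads in lymphomas, depend on the prior count.

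Of the remaining members, Col5a1 and Col5a2, the main chains of type V collagen, were at 11.8 to 46.5 and 16.2 to 49.3 CPM in lymphomas and at 11.1 to 29.5 and 27.1 to 70.5 CPM in neuroblastomas, and Col5a2 was called as lower in EμMyc/Casp2-/- than in Th-MYCN/Casp2-/- tumors. Col12a1, a FACIT of dense connective tissue, was at 3.84 to 20.4 and 12.5 to 27.5 CPM and was called as lower in the same comparison alone, with no overlap, as was Col28a1 (-4.63, LRT FDR 1.69e-06). Col25a1 was also called as lower in that comparison alone (-3.91, LRT FDR 0.0330), its groups overlapping, and it passed the filter through neuroblastomas alone, which favored this direction. Col14a1, another FACIT, was at 2.93 to 31.5 and 4.83 to 14.1 CPM. Col7a1, the chain of the anchoring fibrils of skin, was at 2.75 to 9.38 and 4.72 to 10.5 CPM, and Col2a1, the main chain of cartilage, at 0 to 0.606 and 0.741 to 4.33 CPM. Col4a5 and Col6a5 were at most at 2.02 and 8.58 CPM in any tumor.

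Genes that act on collagens were read from 4 lists. Of 29 tested genes for the modification and secretion of collagens, 0 were called in either comparison of genotypes by the LRT or QLF (1 in neuroblastomas and 3 in lymphomas had an unadjusted p under 0.05), and between tumor types 4 were higher and 10 lower in EμMyc and 5 higher and 8 lower in EμMyc/Casp2-/- tumors. Over all genes, as given above, 7.78% in neuroblastomas and 9.89% in lymphomas had such a p, and 47.5% (18.9% higher and 28.5% lower) and 48% (20.5% and 27.6%) were called between tumor types. None of the 4 lists is read as differing from these shares. P4hb, a subunit of prolyl 4-hydroxylase, was the highest of them, at 519 ± 108 CPM (SD, n = 4) in EμMyc, 492 ± 65.4 CPM (n = 3) in EμMyc/Casp2-/-, 382 ± 69.9 CPM (n = 4) in Th-MYCN and 382 ± 91.6 CPM (n = 4) in Th-MYCN/Casp2-/- tumors. Glt25d1, which adds galactose to collagen chains, was at 251 to 351, 192 to 250.3, 140.4 to 162 and 115 to 188 CPM, and its log2 fold changes between tumor types (0.97 and 0.54) stayed below 1. Mia3, which loads procollagen into vesicles, was at 74.6 to 103 CPM in lymphomas and 140.4 to 252 CPM in neuroblastomas and was called as lower in EμMyc tumors (-1.05, LRT FDR 3.31e-08). Of 9 tested collagen receptors, 0 were called between genotypes by the LRT or QLF (0 and 1 had an unadjusted p under 0.05), and 1 was higher and 2 lower in lymphomas in each comparison of tumor types. The receptor kinase Ddr1 was at 1.01 to 21.5 CPM in lymphomas, with EuMycC2ko215 highest, and at 74.4 to 154 CPM in neuroblastomas (-5.66, LRT FDR 6.30e-14, and -3.48, LRT FDR 8.83e-06), while its relative Ddr2 was higher in lymphomas (1.41, LRT FDR 0.00122, and 1.82, LRT FDR 9.91e-05). Itgb1, the shared subunit of the collagen-binding integrins, was at 133 to 249.7 CPM in lymphomas and 342 to 551 CPM in neuroblastomas and was called as lower in lymphomas in both.

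Of 11 tested collagen-degrading enzymes and inhibitors, 0 were called between genotypes by the LRT or QLF (1 and 1 had an unadjusted p under 0.05), with 2 higher and 4 lower in EμMyc and 3 higher and 4 lower in EμMyc/Casp2-/- tumors between tumor types. Timp2, an inhibitor of matrix metalloproteinases, was at 27.4 to 89.7 CPM in lymphomas and 82.6 to 155 CPM in neuroblastomas. Of 29 other matrix genes, 0 were called between genotypes by the LRT or QLF (4 and 5 had an unadjusted p under 0.05), with 2 higher and 7 lower, and 1 higher and 9 lower, between tumor types. Sparc, a collagen chaperone, was at 126 to 356 CPM in lymphomas and 198 to 409 CPM in neuroblastomas, and the proteoglycan gene Agrn at 6.38 to 28.5 and 281 to 662 CPM (-4.93, LRT FDR 7.13e-30, and -4.83, LRT FDR 1.35e-22).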

How the data were processed

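RNA of 15 mouse tumors was sequenced as single-end 50-base reads from poly(A) libraries on an Illumina HiSeq instrument. The authors aligned them to the mm10 (GRCm38) genome with STAR, whose counts per gene they deposited, and per the submitters' notes FastQC and edgeR were used as well, with versions and the gene annotation release not given in the sources used here. The deposited count tables hold columns for either strand and for each strand. As in the study, counts of the second strand were used, and since these were 48.8 to 49.3% of the reads of both strands, the libraries keep no strand, and genes that overlap on opposite strands cannot be told apart. Rows that name no gene held 66.4 to 71.8% of the reads in the column and were left out. One further EμMyc/Casp2-/- tumor that the study removed was not analysed here.

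The fit held the 14880 of 23329 genes that exceeded 1 CPM in 3 or more tumors, libraries were scaled by TMM, and 4 group means were fitted to all 15 tumors in edgeR 4.0.16 (limma 3.58.1, R 4.3.3). Likelihood ratio tests with Benjamini-Hochberg adjustment over all kept genes gave the calls (FDR below 0.05, log2 fold change above 1 in size), and CPM are TMM-scaled. Alternatives were the quasi-likelihood test, DESeq2 1.42.0, RLE scaling, no filter, reads on either strand, fits to the groups compared alone, sex as a covariate and leaving out each tumor. Leaving out tumors with summed salivary gland markers over 1000 CPM or skeletal muscle markers over 100 CPM was chosen after seeing the data. The procedure was tested on simulated counts. Intervals of read ratios are exact at 95%, and they and the floor of 3 counts cover counting error only. Each tumor is from a different mouse.

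Per-tumor values are given, by rule, for members called between genotypes or in the interaction and for the 3 largest rises and falls without overlap between tumor types. The rule also takes the 5 highest members of each group, the main type I, III, IV, VI, XV and XVIII chains, and Col5a3, which the study names. Other members given per tumor were chosen after their values were seen. Members and lists were chosen with earlier results of these data known. Positions and exon lengths are from GENCODE M21 (GRCm38), and promoter windows are from RefSeq (GRCm38.p6), with 35 of 43 members matched.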

Additional observations from a re-analysis of the deposited data

Results flagged for a closer look

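In groups of 4 tumors, 7 of 51 groups of values held a tumor far from the others. Its gap to the nearest tumor divided by the range of the group was above Dixon's 95% critical value. For independent, normally distributed values chance gives about 1 in 20. These groups share tumors and hold CPM that were not log-transformed, so that rate need not hold here. In EμMyc tumors EuMyc743b stood apart for the type IV chains Col4a1 (302 CPM) and Col4a2 (196 CPM) and for Col15a1 (42.3 CPM). EuMyc614 stood apart for Col27a1 (30.4 CPM). It is listed for Col9a1 (0.0875 CPM) as well, but this rests on 1 read against 0 in the other 3 tumors, which any single read would give, and it is below the floor of 3 reads. In Th-MYCN tumors MYCN235 stood apart as low for Col1a1 (65.9 CPM) and MYCN332 as high for Col5a3 (46.0 CPM).

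The change of Col5a3 in the absence of Casp2 differed between the tumor types by -3.95 on the log2 scale (LRT FDR 0.0274), with lower values in lymphomas and no call in neuroblastomas. QLF gave an FDR of 0.318 for this difference.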

How the results depend on the processing

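No paired analysis was possible because the numbers in the labels name single mice and no number occurs in both groups of a comparison. Of the values recomputed other than by leaving out 1 tumor, 87 of the counts and sums stayed within 1.5 times or 1 SD of the reported value and 30 did not. Of the log2 fold changes, 25 lost a call, 5 gained one, 3 reversed and the rest kept both. The causes were not tested.

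Collagen genes called in neuroblastomas between genotypes (0) came to 4 with a fit to these groups alone (1 higher, Col9a2, and 3 lower, Col13a1, Col24a1 and Col6a6). They came to 2 lower without the tumors high in skeletal muscle transcripts, and to 0 to 2 (0 to 2 lower) leaving out 1 tumor. Shares over all genes are not given for these fits, so the counts are a description. The 2 calls in lymphomas became 0 by QLF and 0 with these groups alone, 1 by DESeq2 (0 higher) and 1 with sex as a covariate (0 higher). Without a filter 2 were higher, Col27a1 and Col22a1. Leaving out 1 tumor gave 0 to 3 (0 to 1 higher, 0 to 2 lower). With EuMyc614 as the sole EμMyc tumor, assumed to vary like the other groups, 2 were called, none of them shared with the reported calls (Col6a4 and Col8a1). The 5 genes called higher in EμMyc than in Th-MYCN tumors became 2 by QLF, 3 with these groups alone, 3 without the tumors high in skeletal muscle transcripts and 3 to 6 leaving out 1 tumor. The interaction (1 lower) gave 0 by QLF, 2 without a filter (1 higher), 2 on either strand (2 lower), 2 without the tumors high in salivary gland transcripts (2 higher, 0 lower), 0 without those high in skeletal muscle transcripts and 0 to 3 leaving out 1 tumor (0 to 1 higher, 0 to 2 lower).

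Directions reversed for Col1a1 in neuroblastomas (-0.38 to 0.24 leaving out 1 tumor, 0.051 without the tumors high in skeletal muscle transcripts), for Col3a1 there (-0.22 to 0.30), for Col5a3 between EμMyc and Th-MYCN tumors (-0.032 to 1.99, lowest without EuMyc835, and -0.75 without the tumors high in salivary gland transcripts) and for Col6a4 in that comparison (-6.29 without them, a fitted value against 0 reads in EuMyc614). Members under 3 reads in a tumor, 0.173 to 0.586 CPM, could not be told from 0.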
